A study of Gallus gallus with 16 samples.

Results

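Pineal glands of chicks kept in darkness to the end of the night were compared with pineal glands taken early in the night. Both sets of birds were controls that received no light at night. They were male Rhode Island Red chicks of 1 week of age, held in 12 h of light and 12 h of dark, with lights-on called ZT0. The ZT0 group had 4 RNA pools, all from the experiment the labels call paradigm 1, and the glands were taken at ZT0. The ZT14 group had 4 pools taken at ZT14, of which pools 1 and 2 were the controls of paradigm 2 and pools 3 and 4 those of paradigm 3. Each pool held 5 to 6 glands and was hybridised to 1 array, so these 8 pools are 8 of the 16 arrays of the series. Samples were selected by their titles, and a gene counted as keeping 1 sign when its difference, ZT0 minus ZT14, pointed the same way against paradigm 2 and against paradigm 3. Of 12532 genes tested, 8104 (64.7%) kept 1 sign. Both differences share the same 4 ZT0 pools, so the number with 1 sign is only a description of how the genes were chosen.

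The chicken pineal gland is a clock in its own right: its cells sense light, run a circadian oscillator and release melatonin into the blood during the dark phase. In the oscillator, CLOCK and its partners drive the PER and CRY genes, whose proteins feed back to repress them, and casein kinases and ubiquitin ligases set how long the repressors last. Melatonin is made from tryptophan, starting with tryptophan hydroxylase (TPH1), an enzyme that needs the cofactor tetrahydrobiopterin. The end of the night and the hours after lights-off are opposite edges of the melatonin phase.

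Values are the log ratios that the authors deposited, each setting 1 pineal pool against a common reference of all 16 pools, and they were taken as log2. The sources used here do not say which channel was the numerator, so a gene is "higher" or "lower" in terms of that ratio, and all signs would turn together if the reference was on top. A ratio to a reference of the same tissue gives no absolute level, so levels cannot be compared between genes and the tissue cannot be checked by the presence of its markers. Each array carried a pool of whole glands, and fewer cells of a type and less RNA per cell cannot be told apart. A gene is called here when its adjusted p is below 0.05 (limma over all genes tested, Benjamini-Hochberg), and ± after a difference is its standard error. Time of night cannot be told apart from paradigm in these arrays, since all ZT0 pools came from paradigm 1 and all ZT14 pools from paradigms 2 and 3.

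At the end of the night 2385 genes (19.0% of 12532) were called against all 4 ZT14 pools, 1079 of them higher (8.61%) and 1306 lower (10.4%). Of these, 2180 (17.4%) also kept 1 sign against both ZT14 groups, 985 higher (7.86%) and 1195 lower (9.54%), and 205 were called with opposite signs. In 1069 of the called genes with 1 sign (8.53%) the 4 ZT0 pools did not overlap the 4 ZT14 pools. No overlap, called or not, was seen for 1614 genes (12.9%), 814 higher and 800 lower.

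The ZT14 pools did not weigh equally in these calls. Against the paradigm 3 pools alone 4265 genes (34.0%) were called, and against the paradigm 2 pools alone 4 (0.0319%), although 1298 genes had an unadjusted p under 0.05 against paradigm 2 (limma). The 2 sets of ZT14 pools differed from each other at 2583 genes (20.6%), paradigm 3 being higher at 1405 and lower at 1178. That count rests on the spread pooled over all groups and on the scale of the arrays: fitted on those 4 arrays alone it was 0 (limma), and with quantile normalization 22. The SD of the log ratios over probes was 0.302, 0.248, 0.449 and 0.546 on the ZT0 arrays, against 0.391 and 0.510 on the ZT14 arrays of paradigm 2 and 1.08 and 0.962 on those of paradigm 3. Among the 2180 called genes with 1 sign, the difference against paradigm 3 was the larger one for 2062, with a median size of 1.59, against 0.478 for paradigm 2. Over all genes tested these medians were 0.504 and 0.234. An unadjusted p under 0.05 against paradigm 2 was found for 627 of the 2180.

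The array numbers in the labels fall into 2 series: ZT0 pools 3 and 4 belong to the later one, and ZT0 pools 1 and 2 and all ZT14 pools to the earlier one. Earlier and later refer only to the order of these numbers, and the labels do not name the series as a batch. With the series as a block 1185 genes were called, and within the earlier series alone, with 2 ZT0 pools, 526. Without the paradigm 3 arrays 8 genes were called. None of the 96 genes picked by the naming rule, not all of which are described below, turned its sign within the earlier series. Of these 96 genes 67 were no longer called there. The other 29 include BHLHE40, BTRC, CLOCK, CRY2, CSNK1D, FBXL21, TEF and SPR, which were not called in the reported fit either.

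**Figure D1:**
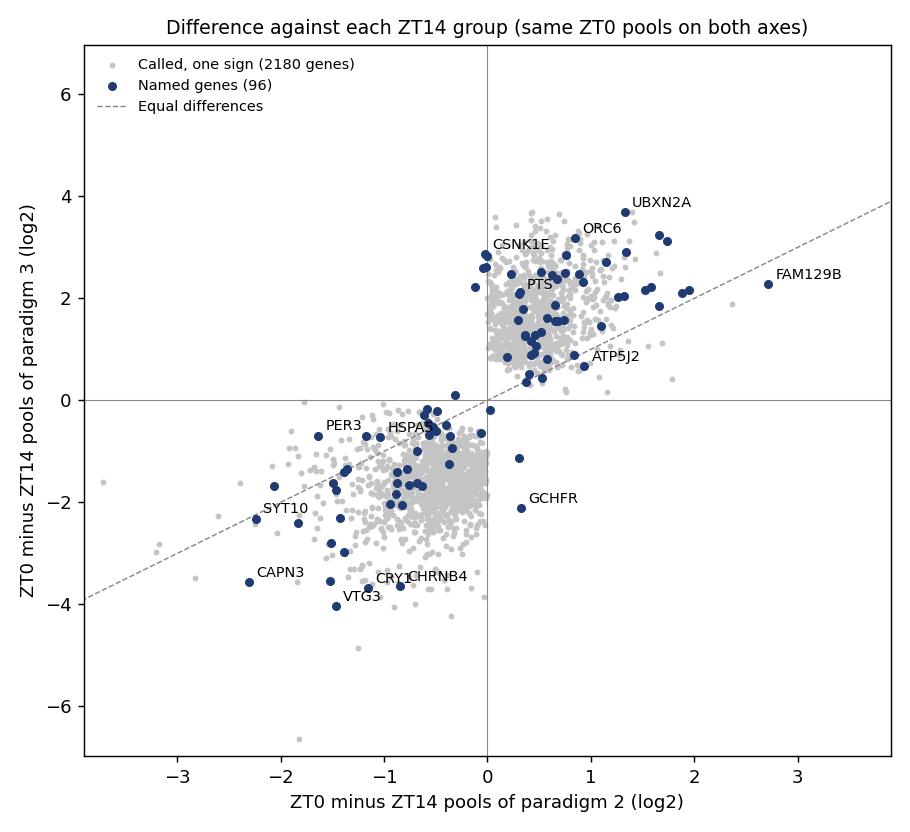
Each point is a gene; the x axis gives ZT0 minus the ZT14 pools of paradigm 2 and the y axis ZT0 minus the ZT14 pools of paradigm 3, both as log2 differences that share the same ZT0 pools. Grey points are the 2180 called genes with 1 sign and blue points the 96 named genes. For 2062 of the grey points the paradigm 3 difference is the larger, so they lie between the dashed line of equal differences and the vertical axis.

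Only 1 gene with a symbol was called against the paradigm 2 pools alone. MACIR, known in mammals as a regulator of macrophage metabolism, was chosen after its values were seen, because it belongs to a set of only 4 called features. It had 0.37, 0.11, 0.41 and 0.15 in the ZT0 pools, against 1.68 and 1.83 in the ZT14 pools of paradigm 2 and 1.92 and 1.13 in those of paradigm 3. All ZT14 pools lay above all ZT0 pools, and the 2 sets of ZT14 pools overlapped. The difference was -1.38 ± 0.17 (adjusted p = 0.000419, limma), -1.49 against paradigm 2 and -1.27 against paradigm 3. The other 3 features called there carry no gene symbol: C0004112_I23 and DT40subNB_9B10 were lower at ZT0 by the fit, with -2.20 and -1.29, and C0004127_D10 was higher, with 2.08 (adjusted p of 0.000226, 0.000571 and 0.000226, limma).

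Among genes with a symbol, those whose smaller difference against the 2 ZT14 groups was largest and whose pools did not overlap were taken as the leading genes, 12 in each direction. FAM129B, BCL11A, DNAJA2, CCKAR, LOXL3, TADA2A, CCDC112, MORC4, KIF1BP, UBXN2A, RPS19BP1 and ARG2 led the higher side. On the lower side stood CAPN3, SYT10, LOC408038, SIM2, NRAP, ABCA13, DUSP13, GLTSCR1L, VTG3, DCHS1, TAOK1 and NOTCH2. Members of the gene lists below were picked by the same rule, unless marked, while clock and melatonin genes are all given. For genes picked by this rule, pools without overlap follow from the choice and are no further result.

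FAM129B headed the higher genes. Its ZT0 pools had 0.77, 0.47, 0.75 and 0.91, against -2.69 and -1.30 in the ZT14 pools of paradigm 2 and -0.46 and -2.66 in those of paradigm 3. The ZT0 pools were close together and the ZT14 pools were spread over more than the gap between the groups, within both paradigms. The difference was 2.50 ± 0.56 (adjusted p = 0.00917, limma), a 5.65-fold ratio if the values are log2.

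DNAJA2, a co-chaperone that hands client proteins to the HSP70 chaperones, gave nearly the same difference against either ZT14 group, 1.88 against paradigm 2 and 2.10 against paradigm 3. Its ratios were 0.40, 0.33, 0.52 and 2.08 in the ZT0 pools, against -1.54 and -0.56 in the ZT14 pools of paradigm 2 and -0.98 and -1.57 in those of paradigm 3. One ZT0 pool stood well above the other three, and every ZT14 pool lay below 0. The difference over all pools was 1.99 ± 0.40 (adjusted p = 0.00490, limma).

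BCL11A encodes a zinc-finger repressor known from lymphocytes and neurons. It averaged 0.80 ± 0.51 in ZT0 pools and -1.25 ± 1.01 in ZT14 pools (SD, n = 4 each), and the fitted difference was 2.06. CCKAR, the receptor for the gut peptide cholecystokinin, averaged 0.96 ± 0.47 in ZT0 pools and -1.46 ± 1.31 in ZT14 pools (SD, n = 4 each). LOXL3, an enzyme that cross-links collagen, averaged 0.57 ± 0.14 in ZT0 pools and -1.19 ± 0.90 in ZT14 pools (SD, n = 4 each). In each of these genes the ZT14 pools were more scattered than the ZT0 pools, and the lowest single pool was pool 3 of paradigm 3.

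TADA2A, a subunit of histone acetyltransferase complexes, and UBXN2A, an adaptor of the p97 segregase, had larger gaps against paradigm 3 than against paradigm 2. UBXN2A had -0.16, 0.09, 0.59 and 0.42 in the ZT0 pools, against -1.77 and -0.42 in the ZT14 pools of paradigm 2 and -3.08 and -3.84 in those of paradigm 3. Its difference was 2.51 ± 0.30 (adjusted p = 0.000406, limma), 1.33 against paradigm 2 and 3.69 against paradigm 3. TADA2A differed by 2.45 ± 0.34 (adjusted p = 0.000894, limma), 1.66 against paradigm 2 and 3.25 against paradigm 3. In both genes the paradigm 3 pools lay below the paradigm 2 pools.

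The remaining higher genes had differences from 1.65 for ARG2, the mitochondrial arginase, to 2.13 for KIF1BP, a partner of kinesin motors. MORC4 stood at 1.84 and RPS19BP1, which binds a protein of the small ribosomal subunit, at 1.68. CCDC112 differed by 1.91. KIF1BP stayed called under 6 of 15 alternative settings.

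On the lower side, CAPN3 and NRAP are best known from skeletal muscle. CAPN3, a calcium-activated protease of muscle, had -3.32, -1.25, -0.74 and -1.65 in the ZT0 pools, against 0.93 and 0.19 in the ZT14 pools of paradigm 2 and 2.59 and 1.07 in those of paradigm 3. Every ZT0 pool was below 0 and every ZT14 pool above it. The difference was -2.93 ± 0.68 (adjusted p = 0.0103, limma), -2.30 against paradigm 2 and -3.57 against paradigm 3. NRAP, which anchors actin at the ends of myofibrils, was lower by the fit at -2.53 ± 0.46 (adjusted p = 0.00308, limma), and its paradigm 3 pools, with 2.80 and 3.06, stood above its paradigm 2 pools, with 1.34 and 0.46.

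SYT10, a synaptotagmin that senses calcium at secretory vesicles, was among the most even of the leading genes. It had -0.67, -1.15, -1.07 and -0.56 in the ZT0 pools, against 1.43 and 1.32 in the ZT14 pools of paradigm 2 and 1.92 and 0.99 in those of paradigm 3. The spread within each group was far smaller than the gap between them, yet the adjusted p of the difference of -2.28 ± 0.68 was only 0.0332 (limma), in a fit whose error is pooled over all 6 groups. It stayed called under 3 of 15 alternative settings.

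SIM2, a transcription factor of the same bHLH-PAS family as CLOCK, averaged -0.65 ± 0.36 in ZT0 pools and 1.22 ± 1.31 in ZT14 pools (SD, n = 4 each). The ZT14 mean rests in part on pool 1 of paradigm 2, at 3.00, while pool 2 of the same paradigm was at -0.16, just above the highest ZT0 pool at -0.29. NOTCH2, a receptor for membrane-bound ligands of neighbouring cells, averaged -0.03 ± 0.32 in ZT0 pools and 2.15 ± 1.73 in ZT14 pools (SD, n = 4 each), with pool 3 of paradigm 3 at 4.73. VTG3, a vitellogenin that the laying hen's liver makes for egg yolk, had that same pool at 5.79, while its other ZT14 pools lay between 0.65 and 0.98. The difference for VTG3 was -2.75 ± 0.82 (adjusted p = 0.0336, limma), and it stayed called under 4 of 15 alternative settings.

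The other lower genes spanned differences from -2.15 for ABCA13, a lipid transporter, to -1.39 for TAOK1, a protein kinase. DUSP13, a dual-specificity phosphatase, differed by -1.55 and DCHS1, a giant protocadherin of planar cell polarity, by -1.87. GLTSCR1L and LOC408038 differed by -1.62 and -2.12. ABCA13 stayed called under 8 of 15 alternative settings.

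**Figure D2:**
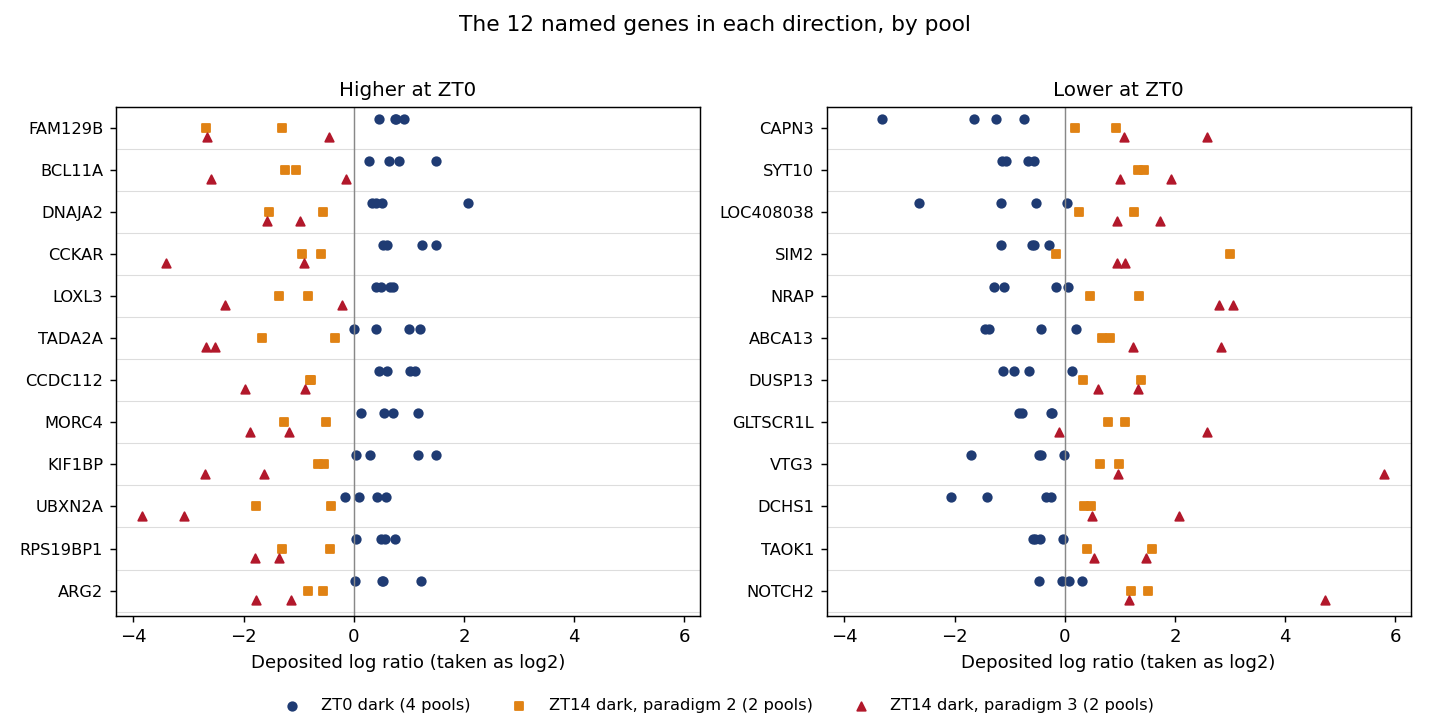
Deposited log ratios (x axis, taken as log2) of the 12 leading genes higher at ZT0 (left) and lower at ZT0 (right), 1 row per gene and 1 symbol per pool, with ZT0 pools as circles, ZT14 pools of paradigm 2 as squares and those of paradigm 3 as triangles. In every row the 4 circles lie to 1 side of all ZT14 symbols. The highest and lowest values shown, 5.79 for VTG3 and -3.84 for UBXN2A, are triangles, but in some rows a square or a circle lies furthest out.

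Of 11 clock genes measured, 1 was called higher (9.09%, beside 8.61% of all genes) and 3 were called lower (27.3%, beside 10.4%). With quantile normalization, with each array scaled to the same SD and within the earlier array series, 0 clock genes were called (limma). Of all genes 3.53%, 3.64% and 2.43% were called higher in those settings, and 3.55%, 3.74% and 1.77% lower. In the reported fit 1 clock gene was higher and 4 were lower at an unadjusted p under 0.05 (limma). PER3, a repressor of the oscillator, had 0.93, 0.95, 1.30 and 0.69 in the ZT0 pools, against 2.65 and 2.55 in the ZT14 pools of paradigm 2 and 1.45 and 1.86 in those of paradigm 3. All ZT0 pools lay below all ZT14 pools, and among the ZT14 pools the paradigm 2 pair was the higher one. The difference was -1.16 ± 0.27 (adjusted p = 0.00997, limma), -1.64 against paradigm 2 and -0.69 against paradigm 3. PER3 ratios were above 0 in all 8 pools, and on quantile-normalised arrays the difference was 0.05 (adjusted p = 0.947, limma), so its direction depends on the scaling of the arrays. With each array scaled to the same SD the difference, averaged over both ZT14 groups, kept its sign and was no longer called. That sign rests on the paradigm 2 pools. Divided by the SDs of their arrays, the PER3 ratios of the ZT0 pools are on average above those of the paradigm 3 pools.

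RORA, an activator of clock gene transcription, had -0.30, -0.07, -0.23 and -0.33 in the ZT0 pools, against 0.03 and 0.18 in the ZT14 pools of paradigm 2 and 0.48 and 0.90 in those of paradigm 3. The groups did not overlap. The difference was -0.63 ± 0.16 (adjusted p = 0.0176, limma), -0.34 against paradigm 2 and -0.92 against paradigm 3. RORA stayed called under 8 of 15 alternative settings.

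CRY1, the partner of the PER proteins in repression, was called lower, but its pools fell apart by array series. It had -0.21, -0.01, -2.83 and -2.46 in the ZT0 pools, against -0.41 and -0.03 in the ZT14 pools of paradigm 2 and 1.18 and 3.44 in those of paradigm 3. ZT0 pools 1 and 2, from the same array series as the ZT14 pools, overlapped the paradigm 2 pools, and the strongly negative values were those of the later series. The difference was -2.42 ± 0.69 (adjusted p = 0.0269, limma) over all pools and -1.15 (adjusted p = 0.280, limma) within the earlier series. CRY1 stayed called under 4 of 15 alternative settings.

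CSNK1E, a casein kinase that marks PER proteins for destruction, was called higher, with the paradigm 3 pools standing apart. Its ratios were 0.21, -0.10, -0.22 and 0.15 in the ZT0 pools, against 0.09 and -0.03 in the ZT14 pools of paradigm 2 and -3.39 and -2.32 in those of paradigm 3. The ZT0 pools and the paradigm 2 pools shared 1 range. The difference was 1.42 ± 0.27 (adjusted p = 0.00410, limma), -0.02 against paradigm 2 and 2.87 against paradigm 3.

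The other 7 clock genes did not pass the test. Their differences were -0.41 for CRY2, -0.38 for TEF, an output transcription factor of the clock, -0.34 for the kinase CSNK1D, -0.34 for the ubiquitin ligase subunit BTRC, -0.10 for the repressor BHLHE40, -0.08 for CLOCK and 0.37 for FBXL21, a ubiquitin ligase subunit that targets CRY proteins. CLOCK was nearly level, with -0.42 ± 0.04 in ZT0 pools and -0.33 ± 0.13 in ZT14 pools (SD, n = 4 each). CRY2 had opposite signs against the 2 ZT14 groups, 0.31 against paradigm 2 and -1.12 against paradigm 3.

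Of 6 genes of the melatonin pathway measured, 3 were called higher and 2 lower (83.3% called, beside 19.0% of all genes), and 5 of the 6 concern the cofactor of TPH1 rather than the pathway's own enzymes. With quantile normalization or SD scaling 1 of the 6 was called higher and 0 lower (limma). Within the earlier array series 2 were called higher and 0 lower. Of all genes 3.53%, 3.64% and 2.43% were called higher in those settings, and 3.55%, 3.74% and 1.77% lower. In the reported fit 4 of the 6 were higher and 2 lower at an unadjusted p under 0.05 (limma). Genes under the symbols of the later enzymes, AANAT and ASMT, were not analysed here. TPH1 had -0.52, -1.18, -0.37 and -0.90 in the ZT0 pools, against -0.07 and -0.26 in the ZT14 pools of paradigm 2 and -0.32 and -0.28 in those of paradigm 3. All ZT0 pools lay below all ZT14 pools, by a narrow margin. The difference was -0.51 ± 0.16 (adjusted p = 0.0463, limma), -0.58 against paradigm 2 and -0.44 against paradigm 3, and TPH1 stayed called under 2 of 15 alternative settings.

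Tetrahydrobiopterin is made from GTP by GCH1, PTS and SPR in turn, and is regenerated after use by QDPR. GCH1 had 0.29, 0.47, -0.14 and 0.23 in the ZT0 pools, against -0.19 and -0.32 in the ZT14 pools of paradigm 2 and -0.74 and -1.38 in those of paradigm 3. The groups did not overlap, although ZT0 pool 3 was only just above the highest ZT14 pool. The difference was 0.87 ± 0.24 (adjusted p = 0.0237, limma), 0.46 against paradigm 2 and 1.27 against paradigm 3. GCH1 stayed called under 7 of 15 alternative settings.

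PTS had 0.05, 0.04, 0.05 and 0.76 in the ZT0 pools, against 0.07 and -0.24 in the ZT14 pools of paradigm 2 and -2.06 and -1.66 in those of paradigm 3. The paradigm 2 pools overlapped the ZT0 pools and the paradigm 3 pools did not. The difference was 1.20 ± 0.21 (adjusted p = 0.00285, limma). SPR, the last enzyme of the route, was not called, with 0.70 ± 0.30 (adjusted p = 0.121, limma), though its groups did not overlap.

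QDPR and GCHFR, the feedback regulator of GCH1, were called but had opposite signs against the 2 ZT14 groups. QDPR differed by -0.12 from paradigm 2 and by 2.22 from paradigm 3. GCHFR differed by 0.33 from paradigm 2 and by -2.12 from paradigm 3. Its pools had 0.03, 0.35, 0.08 and 0.64 at ZT0, against 0.31 and -0.41 in the ZT14 pools of paradigm 2 and 2.20 and 2.59 in those of paradigm 3. Once more the paradigm 3 pools stood apart from the other six.

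**Figure D3:**
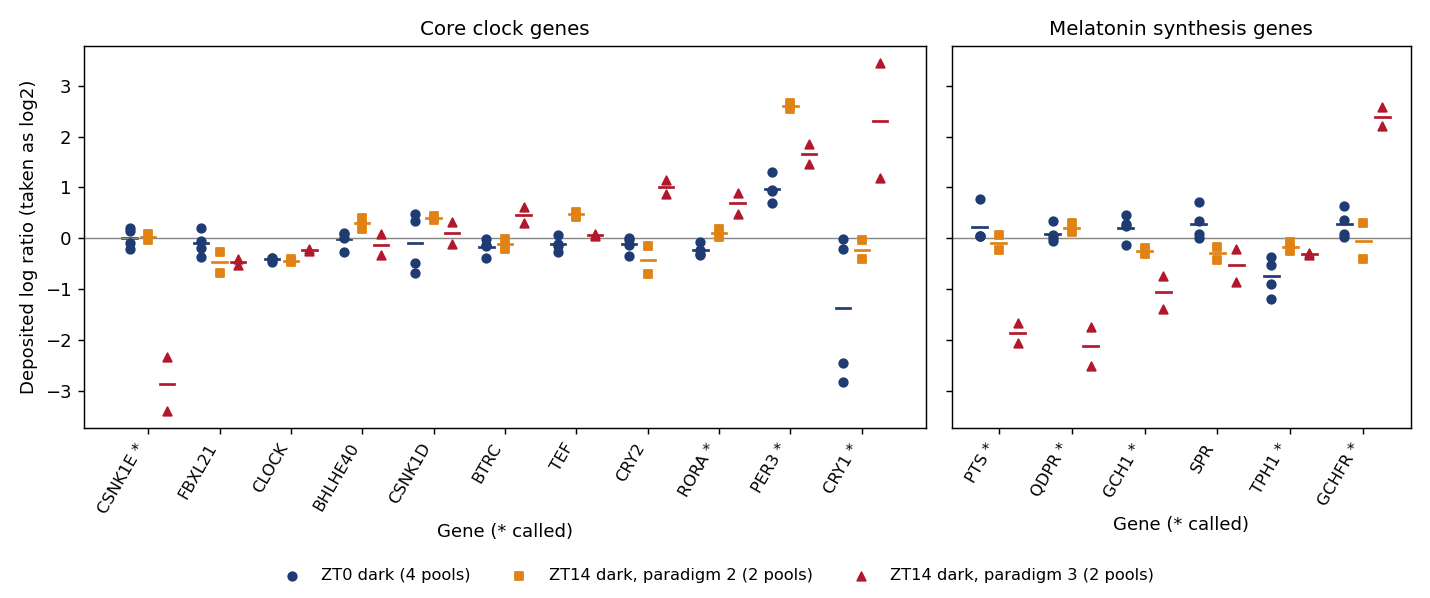
Deposited log ratios (y axis, taken as log2) of the 11 clock genes (left) and 6 melatonin pathway genes (right) by pool, ordered by the difference; short bars are the means of the ZT0 pools, the ZT14 pools of paradigm 2 and those of paradigm 3, and an asterisk marks a called gene. In these ratios as deposited, the ZT0 circles of PER3, RORA and TPH1 lie below all their ZT14 symbols (the PER3 difference changed sign with quantile normalization), whereas for CSNK1E, PTS, QDPR and GCHFR the triangles of paradigm 3 stand apart.

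Phototransduction and retinoid genes (8 measured) and pineal transcription factors (7 measured) had 0 called members at ZT0 (limma), beside 19.0% of all genes. At an unadjusted p under 0.05 these lists had 0 and 2, beside 4101 of all 12532 genes (limma). The median differences of the lists were 0.14 and 0.28, beside -0.03 over all genes tested. Against paradigm 2 these medians were -0.02 and -0.04, and against paradigm 3 they were 0.22 and -0.07. With SD scaling the medians were -0.07 and -0.12, so neither list has a settled direction. Against the paradigm 3 pools alone, 1 pineal transcription factor was called higher and 1 lower, beside 34.0% of all genes called there.

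Of 14 immediate early genes, which neurons and endocrine cells switch on within minutes of a stimulus, 3 were called higher (21.4%, beside 8.61% of all genes) and 0 lower (limma; 1 lower at an unadjusted p under 0.05). SIK1, a kinase that restrains cAMP-driven transcription, had -0.24, -0.15, 0.23 and -0.18 in the ZT0 pools, against -0.46 and -0.51 in the ZT14 pools of paradigm 2 and -0.59 and -0.62 in those of paradigm 3. The ZT14 pools were tightly grouped below all ZT0 pools. The difference was 0.46 ± 0.14 (adjusted p = 0.0357, limma), and SIK1 stayed called under 3 of 15 alternative settings. The other called members, named after their values were seen, were the neurotrophin BDNF at 0.67 ± 0.15 and the matricellular protein CCN2 at 1.16 ± 0.34 (adjusted p of 0.00862 and 0.0303, limma). BDNF differed from paradigm 2 by 1.16 and from paradigm 3 by 0.17, and CCN2 by 0.04 and 2.27, so they did not rest on the same pools. With quantile normalization, SD scaling or within the earlier array series, 0 of the 14 were called (limma). Of all genes 3.53%, 3.64% and 2.43% were called higher in those settings, and 3.55%, 3.74% and 1.77% lower. In the reported fit 3 of the 14 were higher at an unadjusted p under 0.05 (limma).

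Signalling through cAMP and calcium had 3 members called higher and 4 lower of 51 (13.7%, beside 19.0% of all genes). ADCYAP1, the precursor of the neuropeptide PACAP that stimulates pineal cAMP, averaged 0.32 ± 0.18 in ZT0 pools and -0.91 ± 1.11 in ZT14 pools (SD, n = 4 each). The ZT14 mean joins 2 unlike sets, with 0.07 and -0.07 in the pools of paradigm 2 and -1.38 and -2.25 in those of paradigm 3. ADCYAP1 differed by 0.32 from paradigm 2 and by 2.13 from paradigm 3. The anchoring protein AKAP7, which tethers protein kinase A, had 1.10 ± 0.26 as its difference. RGS20, a brake on G-protein signals, differed by -0.94 ± 0.27 (adjusted p = 0.0271, limma; called under 4 of 15 alternative settings). The cAMP-responsive transcription factor ATF1, over 3 probes of 1 sign, differed by -0.53 ± 0.14 (adjusted p = 0.0209, limma). ATF1 stayed called under 8 of 15 alternative settings.

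Genes of the respiratory chain and ATP synthase lay mostly on the higher side: of 34 measured, 30 had a positive difference and 7 were called, all higher (20.6%, beside 8.61% of all genes). Of all 12532 genes 5950 had a positive difference. At an unadjusted p under 0.05 the count for the list was 10 higher and 0 lower, beside 1839 and 2262 of all genes (limma). The median difference was 0.23, beside -0.03 over all genes, and it was 0.19 against paradigm 2 and 0.43 against paradigm 3. ATP5J2, a subunit of the ATP synthase membrane part, had 0.42, 0.21, 0.08 and 0.18 in the ZT0 pools, against -0.81 and -0.63 in the ZT14 pools of paradigm 2 and -0.21 and -0.68 in those of paradigm 3. Here the groups were well separated, and the paradigm 2 pools were as low as the paradigm 3 pools. The difference was 0.80 ± 0.14 (adjusted p = 0.00274, limma), 0.94 against paradigm 2 and 0.67 against paradigm 3.

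UQCRFS1, the Rieske iron-sulfur protein of complex III, had 0.04, 0.17, 1.00 and 0.46 in the ZT0 pools, against -0.15 and -0.79 in the ZT14 pools of paradigm 2 and -2.29 and -1.83 in those of paradigm 3. The difference was 1.68 ± 0.24 (adjusted p = 0.00110, limma). ATP5L, another ATP synthase subunit, and NDUFV1, a flavoprotein of complex I, differed by 1.52 and 1.35. In these 3 genes the paradigm 3 pools were the lowest, and for NDUFV1 the difference from paradigm 2 was 0.22.

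Glycolysis and pyruvate use had 3 members called higher and 0 lower of 20 (15.0%, beside 8.61%), with 4 and 1 at an unadjusted p under 0.05 (limma). DLD, a subunit of the pyruvate dehydrogenase complex, differed by 1.52 ± 0.29 and PDK4, the kinase that switches that complex off, by 1.06 ± 0.19 (adjusted p of 0.00398 and 0.00289, limma). The third, HK1, the hexokinase that traps glucose, differed by 0.82 and was named after its values were seen. All 3 differed mostly from paradigm 3. Against paradigm 2 the differences were 0.52 for DLD, 0.34 for PDK4 and 0.13 for HK1, and against paradigm 3 they were 2.52, 1.78 and 1.52. The paradigm 2 pools of HK1 lay within the range of its ZT0 pools.

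Protein synthesis genes were also called in 1 direction. Cytosolic ribosomal proteins had 7 higher and 0 lower of 35 (20.0%, beside 8.61%), mitochondrial ribosomal proteins 5 and 0 of 30 (16.7%), and translation factors 7 and 0 of 45 (15.6%). At an unadjusted p under 0.05, 1, 0 and 2 of them were lower (limma). Their median differences were 0.22, 0.22 and 0.12. Against paradigm 2 these medians were 0.13, 0.11 and 0.00, and against paradigm 3 they were 0.27, 0.25 and 0.18. Of the 7 called translation factors 5 kept 1 sign against both ZT14 groups. EIF2AK3, 1 of the 7, is also counted among the endoplasmic reticulum folding genes below. It differed by -0.04 from paradigm 2 and by 1.51 from paradigm 3, and was named after its values were seen. MRPS30, of the mitochondrial ribosome, had 0.29, 0.01, 0.61 and 0.77 in the ZT0 pools, against -0.41 and -0.43 in the ZT14 pools of paradigm 2 and -0.54 and -0.41 in those of paradigm 3. The 4 ZT14 pools were almost identical and lay below every ZT0 pool. The difference was 0.87 ± 0.17 (adjusted p = 0.00416, limma).

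RPS23, of the small cytosolic subunit, differed by 1.26 ± 0.28 and EIF2B4, a subunit of the exchange factor that recharges eIF2, by 1.93 ± 0.51 (adjusted p of 0.00840 and 0.0198, limma). RPL22 was closer between paradigms, with 0.53 against paradigm 2 and 0.44 against paradigm 3, but its overall difference of 0.49 ± 0.16 barely passed (adjusted p = 0.0497, limma), and it stayed called under 2 of 15 alternative settings. With quantile normalization 2 cytosolic ribosomal proteins (5.71%), 2 mitochondrial ribosomal proteins (6.67%), 1 translation factor (2.22%) and 4 genes of oxidative phosphorylation (11.8%) were called higher, beside 3.53% of all genes in that setting. Within the earlier array series the counts were 0, 0, 3 (6.67%) and 4 (11.8%), beside 2.43% of all genes.

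Protein folding in the endoplasmic reticulum split evenly, with 4 of 35 members called higher and 4 lower (22.9%, beside 19.0% of all genes). HSPA5, the main luminal chaperone, had -0.20, 0.05, 0.17 and -0.10 in the ZT0 pools, against 0.84 and 1.19 in the ZT14 pools of paradigm 2 and 0.74 and 0.66 in those of paradigm 3. The ZT0 pools clustered around 0 and all ZT14 pools stood above them, those of paradigm 2 highest. The difference, the same in sign for both probes, was -0.88 ± 0.14 (adjusted p = 0.00169, limma), -1.04 against paradigm 2 and -0.72 against paradigm 3. SDF2L1, a partner of HSPA5, differed by -0.45 ± 0.13, with -0.40 and -0.49 against paradigms 2 and 3, and stayed called under 2 of 15 alternative settings. ERO1A, the oxidase that forms disulfide bonds, went the other way with 1.81 ± 0.34 (adjusted p = 0.00348, limma).

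Heat shock proteins and co-chaperones had 6 of 39 called higher and 2 lower (20.5%, beside 19.0%). The lower pair was DNAJB4, a cytosolic co-chaperone, at -1.15 ± 0.20 and CHORDC1, a partner of HSP90, at -1.16 ± 0.25 (adjusted p of 0.00246 and 0.00821, limma). Among 46 proteasome and ubiquitin conjugation genes 5 were called higher (10.9%, beside 8.61% of all genes) and 1 lower (2.17%, beside 10.4%), among them the proteasome lid subunit PSMD12 at 1.63 ± 0.27 (adjusted p = 0.00197, limma).

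Sterol and fatty acid synthesis had 3 of 21 called higher and 1 lower (19.0%, the share of all genes). INSIG1, which holds the sterol sensor SCAP in the endoplasmic reticulum, differed by 1.54 ± 0.26 and SQLE, the squalene epoxidase of cholesterol synthesis, by -0.55 ± 0.17 (adjusted p of 0.00202 and 0.0358, limma). For SQLE the differences were close, -0.50 against paradigm 2 and -0.60 against paradigm 3, and for INSIG1 they were 0.63 and 2.46. SQLE stayed called under 5 of 15 alternative settings.

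Splicing factors were called in equal numbers, 6 higher and 6 lower of 65 (18.5%, beside 19.0% of all genes). HNRNPK, an abundant RNA-binding protein, had -0.18, -0.14, -0.30 and -0.15 in the ZT0 pools, against 0.45 and 0.40 in the ZT14 pools of paradigm 2 and 0.07 and 0.11 in those of paradigm 3. The ZT0 pools, the paradigm 2 pools and the paradigm 3 pools each kept to a narrow range of their own. The difference was -0.45 ± 0.15 (adjusted p = 0.0459, limma), and HNRNPK stayed called under 3 of 15 alternative settings. Cell division and DNA replication had 4 of 55 called higher and 1 lower (9.09%, beside 19.0% of all genes), with ORC6, of the origin recognition complex, at 2.01 ± 0.27 and CDC20, an activator of the anaphase ligase, at 1.28 ± 0.32 (adjusted p of 0.000723 and 0.0145, limma). Antioxidant enzymes had 1 of 18 called (5.56%), also below the share of all genes.

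Ion channels were the list with most calls on the lower side. Of 96 measured, 19 were called lower (19.8%, beside 10.4% of all genes) and 2 higher (2.08%, beside 8.61%). A negative difference was found for 68 of the 96, beside 6582 of all 12532 genes. The list also holds 3 P2RY receptors, which are coupled to G proteins and are no channels. Of these P2RY13 was called lower, with 0.10 against paradigm 2 and -1.91 against paradigm 3, so 18 of the 93 others were called lower. The median of the whole list was -0.33, but it was -0.06 against paradigm 2 and -0.64 against paradigm 3. CHRNB4, a nicotinic acetylcholine receptor subunit, had -0.24, -0.45, -0.19 and -0.63 in the ZT0 pools, against 0.67 and 0.26 in the ZT14 pools of paradigm 2 and 3.73 and 2.79 in those of paradigm 3. All ZT0 pools were below 0 and all ZT14 pools above it, with the paradigm 3 pair far above the rest. The difference was -2.24 ± 0.27 (adjusted p = 0.000406, limma), -0.84 against paradigm 2 and -3.64 against paradigm 3.

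CHRNA6, another nicotinic subunit, differed by -1.25 ± 0.36, the gap junction protein GJB5 by -1.14 ± 0.19 and the cation channel TRPA1 by -1.44 ± 0.42 (adjusted p of 0.0288, 0.00216 and 0.0311, limma). TRPA1 stayed called under 4 of 15 alternative settings and CHRNA6 under 7. GJB5 was closer between paradigms, with -0.87 against paradigm 2 and -1.40 against paradigm 3. With quantile normalization 5 members of the list were called lower (5.21%, beside 3.55% of all genes in that setting), and within the earlier array series 4 (4.17%, beside 1.77%).

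Vesicle traffic, the largest list, had 15 of 108 called higher (13.9%, beside 8.61% of all genes) and 9 lower (8.33%, beside 10.4%). SYT10 is described above. RAB11FIP5, an effector of recycling endosomes, had -0.17, -0.09, -0.05 and -0.10 in the ZT0 pools, against 0.22 and 2.29 in the ZT14 pools of paradigm 2 and 1.54 and 0.95 in those of paradigm 3. Its ZT0 pools were nearly identical, and the ZT14 pools varied widely but stayed above them. The difference was -1.35 ± 0.37 (adjusted p = 0.0215, limma), -1.36 against paradigm 2 and -1.35 against paradigm 3. RAB11FIP5 stayed called under 8 of 15 alternative settings. The sorting nexin SNX8 and the lipid transfer protein VPS13C differed by -1.06 and -1.21. Extracellular matrix genes were called 4 higher and 5 lower of 53 (17.0%, beside 19.0% of all genes). LAMB1, a laminin chain of basement membranes, was at 0.76 ± 0.15 and COL17A1, a hemidesmosome collagen, at -1.48 ± 0.38. COL17A1 stayed called under 7 of 15 alternative settings.

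**Figure D4:**
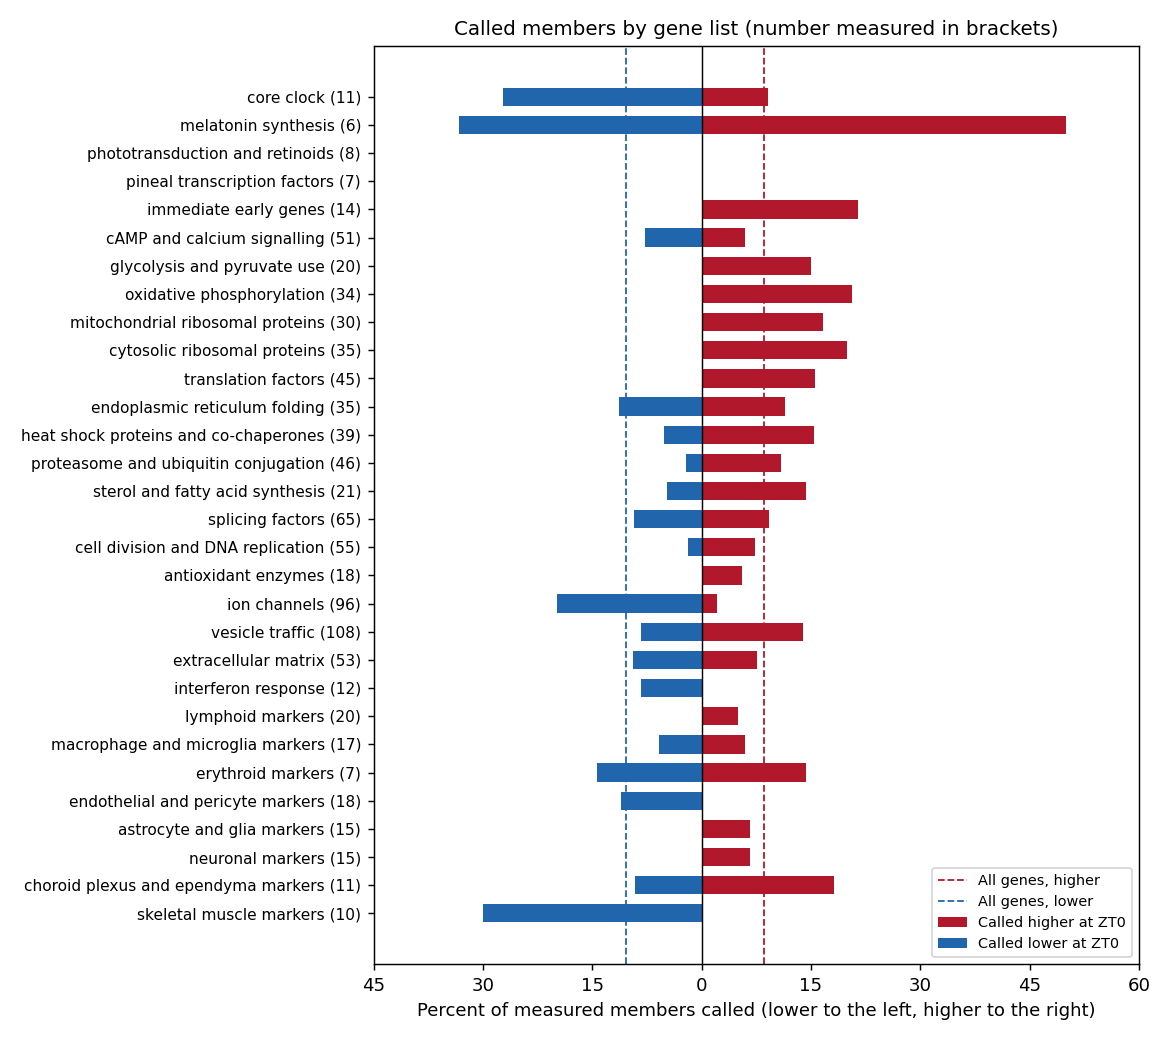
Percent of each list's measured members called higher at ZT0 (red, to the right) and lower (blue, to the left), with the number measured in brackets and dashed lines at the shares over all genes, 8.61% higher and 10.4% lower. Ion channels reach 19.8% lower, oxidative phosphorylation and cytosolic ribosomal proteins 20.6% and 20.0% higher with none lower; the shares of lists with few members move in large steps.

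Markers of other cell types were read in the same way. Skeletal muscle markers had 3 of 10 called lower (30.0%, beside 10.4% of all genes) and 0 higher (limma; 1 higher at an unadjusted p under 0.05), among them TNNI1, a troponin, at -1.36 ± 0.44 (called under 3 of 15 alternative settings) and TTN, the giant spring protein titin, at -0.81 ± 0.19, with 5 of its 6 probes of 1 sign. The mean ratio of the 10 muscle markers lay between -0.12 and -0.04 in the ZT0 pools, at 0.06 and -0.04 in the ZT14 pools of paradigm 2, and at 1.11 and 0.53 in those of paradigm 3. The list, NRAP and the ion channels were thus higher in the paradigm 3 pools than in the other pools, and the part of the muscle markers in those results was not tested. CAPN3 did not differ beyond the threshold between the paradigm 3 and paradigm 2 pools (1.27, adjusted p = 0.376, limma). The mean ratio of the ion channels lay between -0.20 and 0.06 in the ZT0 pools and the ZT14 pools of paradigm 2, against 0.57 and 0.47 in the paradigm 3 pools.

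Of the other 7 marker lists, those of erythroid cells (28.6% called) and of choroid plexus and ependyma (27.3%) stood above the 19.0% of all genes, and the remaining 5 lay between 5.00% and 11.8%. Lymphoid markers had 1 of 20 called, which was BCL11A. Macrophage and microglia markers had 2 of 17 called, 1 higher and 1 lower. The higher one was the endosomal sensor TLR7 at 0.69 ± 0.20 (called under 4 of 15 alternative settings). The lower one had opposite signs against the 2 ZT14 groups. Endothelial and pericyte markers had 2 of 18 called, both lower, and neuronal markers 1 of 15. Glial markers had 1 of 15 called, SOX9, a glial transcription factor, at 1.12 ± 0.21 (adjusted p = 0.00338, limma). Its ZT0 pools had 0.38, 0.22, 0.08 and 0.39, against -0.43 and -0.41 in the ZT14 pools of paradigm 2 and -1.50 and -1.08 in those of paradigm 3. Erythroid markers had 2 of 7 called and those of choroid plexus and ependyma 3 of 11, each in both directions. Interferon response genes had 1 of 12 called (8.33%).

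A set of 111 genes with a symbol was called with opposite signs and also called between the 2 ZT14 groups. Beside CSNK1E, the largest overall differences among them were those of C21orf59, known for ciliary motility, the kinase CDK14 and CCPG1, a receptor for the autophagy of endoplasmic reticulum. C21orf59 had 0.05, -0.13, 0.05 and -0.10 in the ZT0 pools, against 0.06 and -0.11 in the ZT14 pools of paradigm 2 and -2.98 and -2.74 in those of paradigm 3. The ZT0 and paradigm 2 pools overlapped around 0 and the paradigm 3 pair lay far below them. CDK14 and CCPG1 differed from paradigm 3 by 2.61 and 2.60, and from paradigm 2 by -0.01 and -0.04. These 4 genes are examples of the 205 called at ZT0 against ZT14 with opposite signs. They were chosen among those called between the ZT14 groups, so a paradigm 3 pair set apart follows from the choice.

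The 8 arrays of birds that received light at night compare the same times in other pools, ZT0 after 2 h of late-night light against ZT14 after 2 h of early-night light or in a long day, where 1468 genes (11.7%) were called. Time and paradigm cannot be told apart there either, since paradigm 1 again gave all ZT0 pools. The SD of the log ratios over probes was 0.884 and 0.820 on the long-day arrays of paradigm 3. On the other arrays with light it was 0.325 to 0.514. When the paradigm 3 arrays were left out, 18 genes were called in light (limma). The long day is given as 17 h of light and 7 h of dark in the sample titles, but as 15 h and 9 h in the design text. Of the 2180 called genes with 1 sign in darkness, 2053 (94.2%) had the same sign in light, beside 71.6% of all genes. Called in light with the same sign were 796, and with the opposite sign 8. The median difference of oxidative phosphorylation genes was 0.23 in darkness and -0.03 in light, and that of cytosolic ribosomal proteins 0.22 in darkness and -0.0019 in light. The difference in light was -1.29 for PER3, -0.64 for TPH1 and 0.64 for GCH1 (adjusted p of 0.0107, 0.0259 and 0.103, limma). For others it had the opposite sign to that in darkness. BDNF, at -1.27, was called in light (adjusted p = 0.00104, limma). MACIR at 0.46, HSPA5 at 0.14 and SIK1 at -0.39 were not called there (adjusted p of 0.0941, 0.564 and 0.0885, limma). The difference between darkness and light was not tested here.

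**Figure D5:**
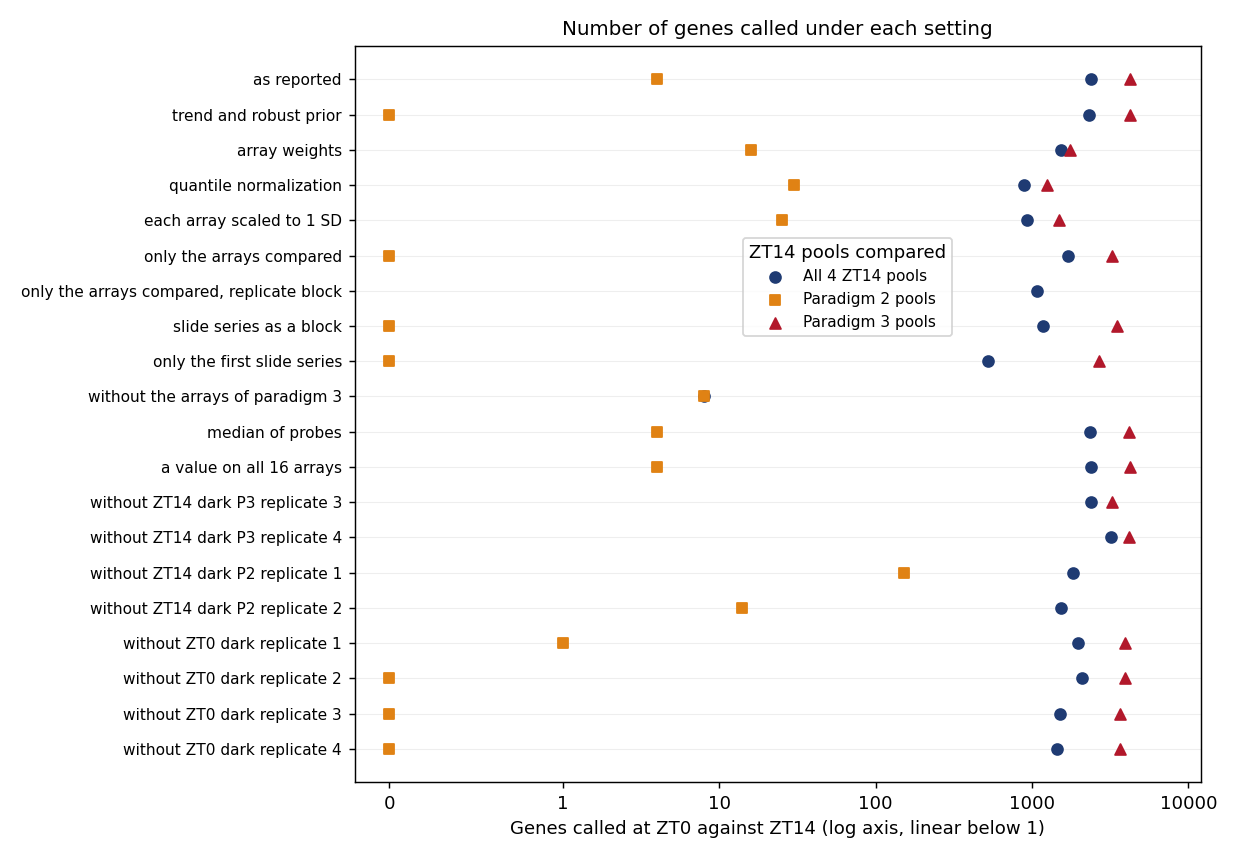
Number of genes called (x axis, log scale, linear below 1) at ZT0 against all 4 ZT14 pools (circles), against those of paradigm 2 (squares) and against those of paradigm 3 (triangles), 1 row per setting. The circles run from 526 within the earlier array series to 3202 without pool 4 of paradigm 3, apart from 8 without the paradigm 3 arrays; the squares stay at or below 152 in every row shown.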

How the data were processed

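RNA of 16 pineal pools was labelled with a Cy3-type dye and hybridised with a reference of equal parts of all pools labelled with a Cy5-type dye, without dye swap, per the labels. The authors deposited 1 log ratio per probe and array, which was used as log2. The sources used here do not give the background correction, normalization, numerator or log base; the largest size is 10.1. No intensities were used, so the number of arrays limits the precision. Of 15769 probes, 160 control spots were left out; 9628 of 15609 had 1 gene symbol in the platform annotation, 0 several and 5981 none. Of 9629 annotated probes, 9486 had a gene ID in the reference gene table, and 0 of these had another current symbol. Probes of a symbol were averaged (1918 genes had more than 1). A value on at least 2 arrays per group was required, which left 12532 of 12691 genes, 6660 with a symbol.

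One mean per group was estimated in limma 3.58.1 under R 4.3.3 by lmFit, contrasts.fit and eBayes, over all 16 arrays and 6 groups, leaving 10 residual and 3.33 prior degrees of freedom; ZT14 was the mean of its 2 groups. The script was tested on simulated data. Pools hold different glands, and p-values measure the spread between pools within each of the 6 groups. The gap between the ZT14 pools of paradigm 2 and those of paradigm 3 is not part of that spread. Genes were named by rule: 12 per direction, at most 4 called, non-overlapping members with 1 sign of each of 30 lists, and all clock and melatonin genes. Also named were 4 genes with a symbol, called with opposite signs and called between the 2 ZT14 groups. Those 4 had the largest overall difference, ZT0 minus ZT14, among such genes. Exceptions are marked. Not every gene picked by rule is described. The members and lists were chosen with earlier results of these data known. Alternatives were array weights, a trend and robust prior, quantile or SD scaling, subsets of arrays and blocks. Others were the median of probes, a value on all 16 arrays, and leaving out each pool. Counts out of 15 leave out the median of probes, a value on all arrays, the replicate block and the fit without paradigm 3.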

Additional observations from a re-analysis of the deposited data

Results flagged for a closer look

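In 5 of the named genes 1 ZT0 pool stood away from the other three by more than Dixon's 95% critical value, the gap to its nearest neighbour being divided by the range of the 4 pools. The ratio was 0.993 for PTS (pool 4 highest), 0.910 for RGS20 (pool 1 highest), 0.899 for RPS23 (pool 4 highest), 0.894 for DNAJA2 (pool 4 highest) and 0.857 for ADCYAP1 (pool 1 highest). Chance gives such a ratio in about 1 of 20 groups, and 96 genes were examined.

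For 30 named genes the difference against paradigm 2 was not that against paradigm 3 by the test of the ZT14 pools of paradigm 3 minus those of paradigm 2 (limma, adjusted over all genes tested). Among energy genes this gap was -2.25 for NDUFV1, -2.001 for DLD, -1.70 for ATP5L, -1.59 for UQCRFS1 and -1.44 for PDK4. It was -1.22 for RPS23, -0.91 for MRPL3, -0.89 for RPL32, -0.74 for MRPS7 and -0.66 for RPL7L1, all of ribosomes or related to them. Protein handling had -2.36 for UBXN2A, -2.08 for ERO1A, -1.76 for PSMD12 and 0.94 for DNAJB4. In the nucleus, ORC6 had -2.34, TADA2A -1.59 and PRPF19 -1.28. Clock and cofactor genes had -2.89 for CSNK1E, 1.43 for CRY2, 2.45 for GCHFR, -2.34 for QDPR and -1.77 for PTS. The gap was -1.84 for INSIG1, -1.81 for ADCYAP1, 2.79 for CHRNB4, 2.02 for NRAP and 0.88 for TTN. It was -2.84 for C21orf59, -2.64 for CCPG1 and -2.62 for CDK14. These last genes were picked by rule among those that this same test called, so their place among the 30 follows from the choice. CSNK1E met that rule too, but was also named as a clock gene. Over all genes this test called 2583, but 22 with quantile normalization and 0 on the compared arrays alone (limma).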

How the results depend on the processing

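The number of genes called at ZT0 against ZT14 was 2385. It was 1528 with array weights, 888 with quantile normalization, 925 with arrays scaled to 1 SD, 1185 with the array series as a block, 526 in the earlier series alone and 8 without the paradigm 3 arrays. Pool numbers were not used to pair the samples in the reported fit. Correlations of same-numbered deviations lay between -0.00783 and 0.0986, and not every pool correlated best with its own number. With 2 pools in each ZT14 group the deviations within it mirror each other, so these correlations cannot decide whether numbers pair the samples. The fit with the replicate block called 1081, against 1711 without it on the same 8 arrays. Leaving out 1 pool gave 1448 to 3202, with 1448, 1510 and 1523 without ZT0 pool 4, ZT0 pool 3 and paradigm 2 pool 2. For genes with 1 sign the count of 2180 became 1376, 887, 922, 1064 and 494 with weights, quantile, SD scaling, series block and earlier series, and 1324 to 2728 without 1 pool. Of the 2180 genes, 855 remained called with quantile normalization and 462 in the earlier series. Under all of 15 alternatives that keep both ZT14 groups, 338 remained called. These 15 do not include the replicate block, the median of probes or a value on all arrays, which also keep both groups.

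Against paradigm 2, 4 genes became 16, 30 and 25 with weights, quantile and SD scaling (17 of the 30 higher, beside 1 of the 4), 8 without paradigm 3, and 0 with a trend and robust prior, the compared arrays alone, the series block or the earlier series (limma; in the reported fit 1298 had an unadjusted p under 0.05). Without 1 pool it was 0 to 152, the highest without paradigm 2 pool 1. Against paradigm 3, 4265 became 1761, 1256, 1489 and 2671 with weights, quantile, SD scaling and the earlier series, and 3275 to 4202 without 1 pool. For paradigm 3 against paradigm 2, 2583 became 772, 22 and 29 with weights, quantile and SD scaling, 0 on the compared arrays, and 1120 to 3229 without 1 pool, the lowest without paradigm 2 pool 2. In light, 1468 became 736 and 791 with quantile and SD scaling, 775 in the earlier series, 18 without paradigm 3, and 644 to 1609 without 1 pool. A changed sign was found for PER3 with quantile normalization (0.052), for BHLHE40 without paradigm 3 pool 3 (0.0026, and -0.20 without pool 4) and, without the paradigm 3 arrays, for CLOCK (0.026), CRY2 (0.31), CSNK1E (-0.019), GCHFR (0.33), QDPR (-0.12), C21orf59 (-0.0069), CDK14 (-0.0083) and CCPG1 (-0.043). The causes were not tested. The number of pools, 2 in each ZT14 group, limits all of these counts.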

Other observations

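Among the 178 genes with a symbol that kept their call under all of 15 alternatives, those outside the lists and the naming rule with the largest smaller difference were looked up after their values were seen, 4 in each direction. On the lower side EPHA1, a receptor for membrane-bound ephrins, differed by -2.14 ± 0.39, -1.33 against paradigm 2 and -2.95 against paradigm 3. FABP2, the fatty acid binding protein of the intestine, differed by -2.06 ± 0.40, with -1.28 and -2.84. PLEKHG1 differed by -1.39 ± 0.21, with -1.25 and -1.53, and MACIR was described above. The adjusted p was 0.00320 for EPHA1, 0.00424 for FABP2 and 0.00140 for PLEKHG1 (limma).

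On the higher side AAK1, a kinase that acts on clathrin adaptors, differed by 2.18 ± 0.36, with 1.23 against paradigm 2 and 3.13 against paradigm 3. MTHFD2, a mitochondrial enzyme of folate metabolism with 2 probes of 1 sign, differed by 1.54 ± 0.25, with 1.17 and 1.92. CCNL2, a cyclin linked to splicing, differed by 1.79 ± 0.27 and TMEM120B by 1.55 ± 0.26. In all of these genes the 4 ZT0 pools lay to 1 side of the 4 ZT14 pools, as in 1614 of all 12532 genes (12.9%). They were chosen for lasting calls and large differences against both ZT14 groups, so this largely follows from the choice and is no further result.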
